A study of Mus musculus with 24 samples.

Results

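The oligodendrocyte lineage of the mouse cortex, from its precursor cells to cells that have committed to making myelin, was followed through 9 genes 1 day after a transient stroke. The 9 genes were Pdgfra, Cspg4, Olig1, Olig2, Sox10, Gpr17, Enpp6, Bcas1 and Tnr, and they were chosen by symbol. All 9 were present in each of the 4 deposited tables of log2 CPM (CPM is a gene's read count relative to all the reads of its library). The table that compares the sides of WT animals holds 14489 genes and that of KO animals 14338, while the tables that compare the genotypes hold 14452 in PI and 14323 in CL.

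The 24 libraries of ribosome-depleted total RNA were made from cortex of males, 3 to 4 months old. In every animal the middle cerebral artery had been blocked for 1 h with a filament, and blood flow had then been restored for 1 day. WT animals were wild type for Cdr1as and KO animals were knockouts of ciRS-7, the circular RNA made from Cdr1as, and the strain is given as C57BL/6N-Cdr1asem1Nikr for all animals of both genotypes. CL and PI mark 2 cortex samples of the same animal, are not spelled out in the labels and are used as given, so that each of the 4 groups (WT and KO, each in CL and PI) had 6 libraries, numbered by animal. No uninjured animals are among these groups, so a change from CL to PI is a difference between 2 samples of injured animals.

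Oligodendrocyte precursors are dividing cells spread through grey and white matter that carry the receptor for platelet-derived growth factor (Pdgfra) and the proteoglycan NG2 (Cspg4). When a precursor commits, it loses these, passes through a short stage marked by Gpr17, Enpp6 and Bcas1, and then switches on the genes of myelin. Olig1, Olig2 and Sox10 are transcription factors kept through the whole lineage, and Tnr encodes tenascin-R, a matrix glycoprotein made by oligodendrocyte lineage cells and also by some neurons. None of the 9 transcripts is fully restricted to this lineage: Cspg4 is also expressed by pericytes, Pdgfra by fibroblasts of the meninges and vessels, and Olig2 by some astrocytes.

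In the comparisons of PI with CL, 1 of the 9 genes was called in each genotype, and both were lower in PI. Cspg4 fell by 0.53 on the log2 scale in WT, and Tnr fell by 0.26 in KO. None of the 9 was called between KO and WT on either side, nor for a difference between the genotypes in the change from CL to PI. A gene was called at a Benjamini-Hochberg adjusted p under 0.05, over all genes of its table, by a moderated trimmed-mean test in limma. Of all genes, 10.6% were called between PI WT and CL WT and 10.0% between PI KO and CL KO, so 1 of 9 is a share near that of all genes. By direction, 5.20% of all genes were called higher and 5.40% lower in WT, and 5.11% higher and 4.94% lower in KO. Between PI KO and PI WT 0.0208% of all genes were called, between CL KO and CL WT 0.0279%, and for the difference of the changes 0%. All these counts are from the test that does not pair the 2 samples of an animal. Pairing them added Bcas1 in WT, so that 2 of the 9 were called there and 1 in KO. The paired test called 2275 of 14489 genes in WT and 2154 of 14338 in KO.

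Within each gene and group of the deposited values, the 2 lowest libraries were tied, as were the 2 highest, each pair having been set to a quartile of its group. The second lowest and second highest can be solved from the quartiles, and the lowest and highest cannot. Levels are therefore given as the lowest recoverable value, the median and the highest recoverable value, and values after ± are the SE of the trimmed mean of a group (n = 6 libraries). Overlap of groups is judged on the recoverable values alone, so the lost lowest and highest values may overlap where these do not. Tables were scaled separately, so levels are compared only within a table.

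The libraries held an effective 3.76 to 10.5 M reads (median 6.91), read from the step between low values, so that 3 reads, taken as the limit of detection, equalled 0.286 to 0.798 CPM. Median reads per library and group ran from 26.4 to 38.5 for Enpp6, 41.0 to 60.2 for Cspg4, 45.3 to 47.5 for Olig2, 45.2 to 50.2 for Sox10, 62.0 to 95.7 for Gpr17, 170.3 to 244.4 for Olig1, 328.0 to 448.7 for Bcas1, 343.3 to 399.7 for Pdgfra and 1658 to 2222 for Tnr. In the tables of KO with WT the targeted Cdr1as matched the labels, with recoverable values of 2594 to 3809 CPM in WT groups and at most 0.169 CPM in KO groups, under the limit. The 12 neuron markers summed to 7851 to 10027 CPM over the recoverable values of the tables of PI with CL, and all 12 were listed. A library stood among the 2 lowest values of its group in 26.3% to 44.7% of genes, where an even share would be 33.3%, with CL KO replicate 6, the shallowest library, and PI WT replicate 4 at the top of that range.

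The 2 genes that were called, and Pdgfra as the other receptor-type marker of the precursor, are shown by the sequence just before their start. The bases are from RefSeq on GRCm38.p6, 5′ to 3′ on the plus strand, with a match to any searched motif in capitals. The windows are chr9:56864854-56865032 for Cspg4, chr1:159523519-159523768 for Tnr and chr5:75152001-75152250 for Pdgfra.
Cspg4: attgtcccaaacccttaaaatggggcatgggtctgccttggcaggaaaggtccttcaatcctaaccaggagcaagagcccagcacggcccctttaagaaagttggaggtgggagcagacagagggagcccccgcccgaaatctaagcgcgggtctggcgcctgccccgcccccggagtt
Tnr: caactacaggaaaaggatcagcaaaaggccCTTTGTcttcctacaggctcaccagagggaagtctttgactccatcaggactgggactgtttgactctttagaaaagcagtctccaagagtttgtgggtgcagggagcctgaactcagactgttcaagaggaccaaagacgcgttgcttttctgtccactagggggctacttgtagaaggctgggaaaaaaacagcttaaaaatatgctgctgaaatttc
Pdgfra: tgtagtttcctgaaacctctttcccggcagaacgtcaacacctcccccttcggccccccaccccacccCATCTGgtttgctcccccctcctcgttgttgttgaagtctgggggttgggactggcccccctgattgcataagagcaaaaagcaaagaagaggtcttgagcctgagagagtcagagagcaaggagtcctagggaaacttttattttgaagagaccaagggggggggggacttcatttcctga
For Cspg4, 179 of the 250 bases are shown, because the annotated gene begins within the RefSeq window. The motifs searched on both strands were the E-box forms CAGCTG and CATCTG, the kind of site that OLIG factors bind, and ACAAAG and ACAATG, forms bound by SOX factors. Over 32841 mouse promoter windows of the same length, 13.0% held CAGCTG, 14.4% CATCTG, 16.5% ACAAAG and 10.7% ACAATG. Pdgfra held CATCTG at position -182 from the RefSeq start, and Tnr held ACAAAG on the minus strand at position -220, printed as its reverse complement. The Cspg4 window held none of the 4. Windows were searched for 5 of the 9 genes. Gpr17 was left out of the search, and Olig1, Sox10 and Bcas1 had no complete RefSeq window of 250 bases. The remaining searched windows both held ACAATG, Enpp6 at position -219 and Olig2 at position -68 on the minus strand. The Olig2 match lies inside the annotated gene, which begins 93 bases before the RefSeq start.

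Cspg4 encodes NG2, the large membrane proteoglycan by which precursors are usually stained. It lies on chromosome 9 from 56865033 to 56899870 on the plus strand (GRCm38, GENCODE M21), where no other annotated gene overlaps it. In CL WT it ran from 7.78 CPM through a median of 8.52 to 9.03, and in PI WT from 5.51 through 5.88 to 6.21. All recoverable PI WT values lay below all recoverable CL WT values. The trimmed means were 3.08 ± 0.07 log2 CPM in CL WT and 2.55 ± 0.05 in PI WT. The log2 fold change was -0.53 (SE 0.12, 95% interval -0.79 to -0.26, adjusted p = 0.0164 by the moderated trimmed-mean test in limma), and Cspg4 stayed called when any 1 of the 12 libraries was left out. The Winsorized SD among PI WT libraries was 0.08, and counting about 41.1 reads gives an SD of 0.23 by itself. A Winsorized SD draws in the lowest and highest values and so runs below an ordinary SD, so the 2 are unlike measures. The replicate spread of this gene may thus not be a full account of its error. Counting alone gives an SE of 0.12 for this difference, the same as the moderated SE to 2 decimals.

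In KO animals Cspg4 ran from 6.40 CPM through 8.22 to 9.31 in CL and from 6.09 through 6.51 to 7.42 in PI. The groups overlapped, since the 2 lowest CL libraries, replicates 3 and 5, had a recoverable value of 6.40 CPM, inside the PI range. The log2 fold change was -0.27 (SE 0.17, 95% interval -0.65 to 0.11, adjusted p = 0.381). The difference between the changes in KO and WT was 0.26 (SE 0.21, 95% interval -0.19 to 0.71, adjusted p = 0.992, limma), so the fall in WT was not shown to differ from the change in KO. In whole cortex, fewer cells of a type and less RNA per cell cannot be told apart, for this gene or any below.

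Pericytes are the other main source of Cspg4 in cortex. Of 12 pericyte and smooth muscle markers 9 were listed (not Tagln, Higd1b and Ndufa4l2), their summed level ran from 101 to 119 CPM in PI WT and from 100.1 to 133 in CL WT, and none of the 9 was called in either genotype. Their median log2 fold change was -0.09 in WT and -0.06 in KO, beside 0.01 and -0.00 over all genes. Pdgfrb, the defining pericyte receptor, had -0.09 (SE 0.12, adjusted p = 0.721) in WT. The smallest p in WT was that of Kcnj8, a potassium channel subunit of pericytes, and no change of the list was larger (0.78, SE 0.26, adjusted p = 0.0839). In KO the smallest p was that of Anpep, a peptidase (-0.81, SE 0.24, adjusted p = 0.0530), and the largest change that of Kcnj8 (0.84, SE 0.38, adjusted p = 0.194). The part of these cells in the Cspg4 value was not tested.

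Pdgfra, the receptor that keeps precursors dividing, was not called in either genotype. It lies on chromosome 5 from 75152292 to 75198215 on the plus strand. In WT it ran from 51.0 CPM through 54.3 to 60.2 in CL and from 53.9 through 57.2 to 60.7 in PI, and the groups overlapped over most of their range. The log2 fold change was 0.06 (SE 0.08, 95% interval -0.12 to 0.24, adjusted p = 0.726). In KO it ran from 46.7 through 49.1 to 50.5 CPM in CL and from 50.6 through 53.2 to 57.0 in PI. Here the recoverable values did not overlap, but the gene did not pass the test (0.13, SE 0.07, 95% interval -0.03 to 0.29, adjusted p = 0.291). Fibroblast genes, whose cells also carry Pdgfra, summed to 59.8 to 71.3 CPM in PI WT and 51.6 to 65.4 in CL WT. All 8 were listed, and their median log2 fold change in WT was 0.56, with 5 of 8 values above 0. At an unadjusted p under 0.05 stood 6 of the 8, beside 23.9% of all genes. Dcn was called higher (1.32, SE 0.18, adjusted p = 0.000654) and Igf2 lower (-0.76, SE 0.10, adjusted p = 0.000367). In KO the fibroblast genes summed to 62.5 to 75.4 CPM in PI and 56.1 to 77.9 in CL. Their median log2 fold change was 0.02, with 5 of 8 values above 0. Dcn was again higher (1.11, SE 0.21, adjusted p = 0.00512) and Igf2 lower (-0.77, SE 0.17, adjusted p = 0.0114). The part of these cells in the Pdgfra values was not tested.

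**Figure D1:**
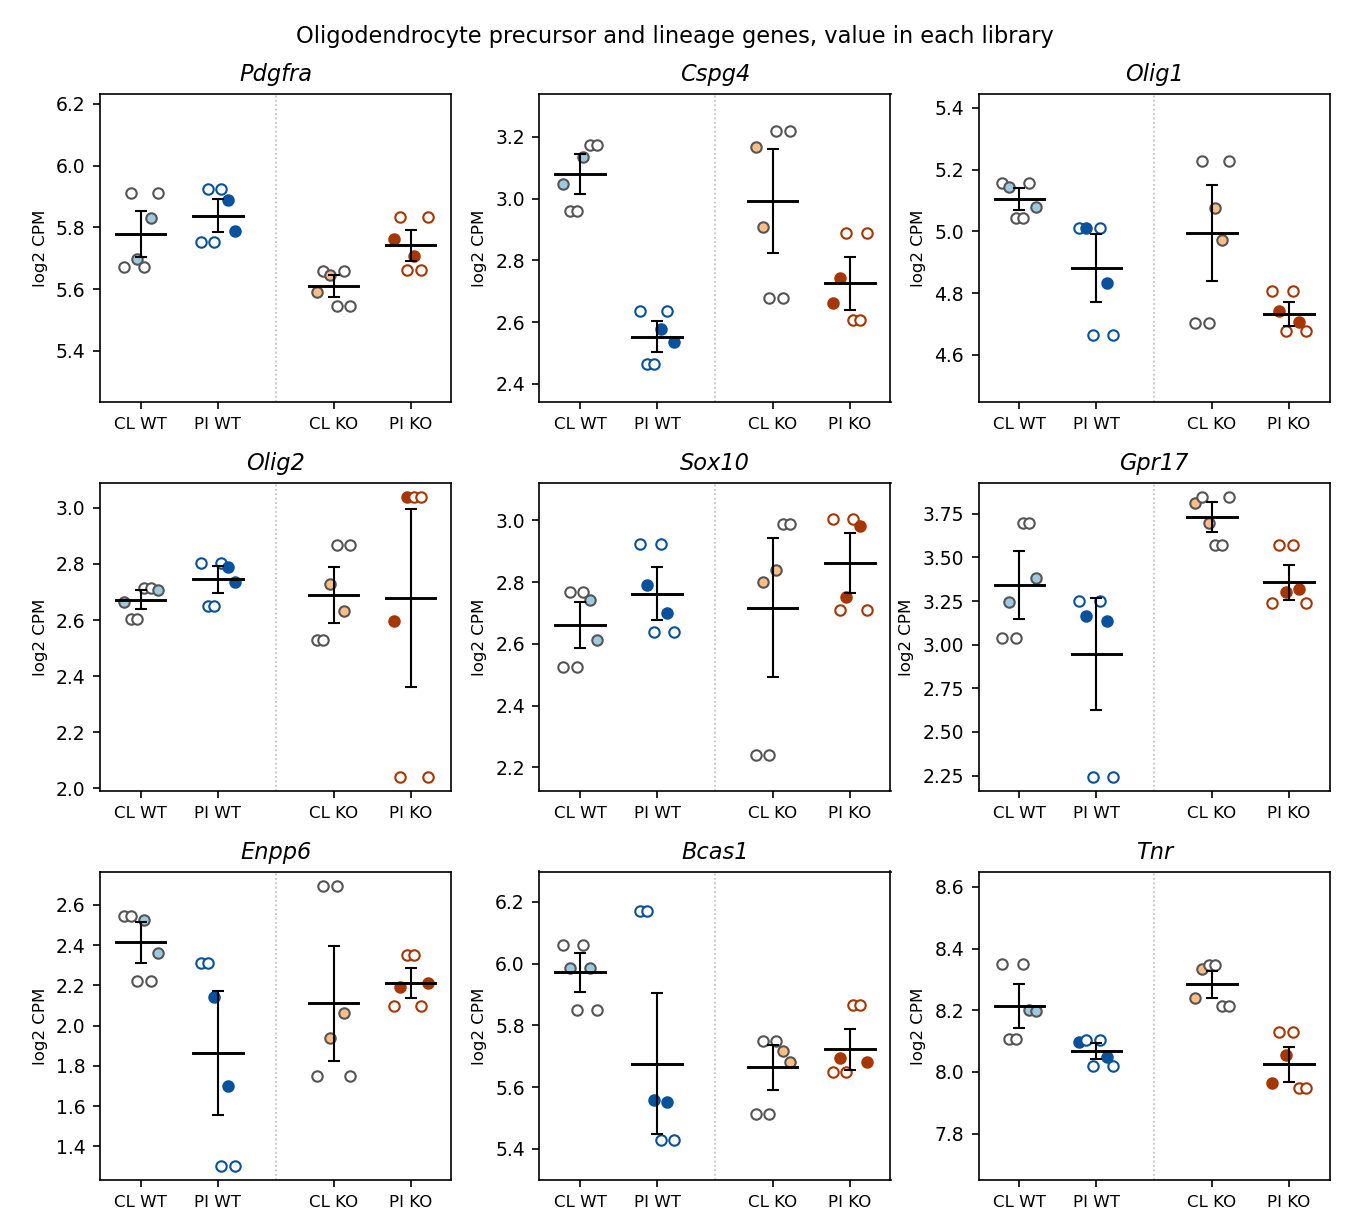
Value of each of the 9 genes in each library (log2 CPM) for CL and PI of WT (left of the dotted line, 1 table) and of KO (right, another table). Filled circles are values deposited unaltered, open circles are the tied pairs drawn at the recovered second lowest or second highest value, and the bar with whiskers is the trimmed mean ± its SE (n = 6): Cspg4 in PI WT (5.51 to 6.21 CPM) lies wholly below CL WT (7.78 to 9.03 CPM), and Tnr in PI KO (247 to 280.2 CPM) wholly below CL KO (297 to 326 CPM).

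Olig1, Olig2 and Sox10, the transcription factors present in all stages of the lineage, were not called in any comparison. Olig1 lies on chromosome 16 from 91269772 to 91271933 and Olig2 on the same chromosome from 91225457 to 91228677, both on the plus strand, and Sox10 on chromosome 15 from 79154908 to 79165240 on the minus strand. Olig1, the factor most tied to maturation of the lineage, ran from 33.0 CPM through 34.6 to 35.7 in CL WT and from 25.4 through 30.3 to 32.3 in PI WT. The recoverable values did not overlap, with a log2 fold change of -0.23 (SE 0.10, 95% interval -0.44 to -0.01, unadjusted p = 0.0437, adjusted p = 0.193 in limma). In KO its CL values spread from 26.0 through 32.5 to 37.5 CPM, and its PI values from 25.6 through 26.4 to 28.0. The KO groups overlapped because CL KO replicates 1 and 3 were low, and the change was -0.26 (SE 0.13, 95% interval -0.54 to 0.02, adjusted p = 0.231). Leaving out CL KO replicate 1 alone brought it to -0.36 with an adjusted p of 0.0472, past the threshold.

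Olig2, the factor that specifies the lineage, was not called, and its fitted changes were under 0.1 in both genotypes. It ran from 6.08 CPM through 6.44 to 6.56 in CL WT and from 6.27 through 6.79 to 6.98 in PI WT (log2 fold change 0.07, SE 0.12, adjusted p = 0.781). In PI KO it spread from 4.11 through 7.05 to 8.23 CPM, since PI KO replicates 2 and 6 were low, while CL KO ran from 5.77 through 6.41 to 7.29. That spread leaves the KO change poorly bounded, at -0.01 (SE 0.26, 95% interval -0.57 to 0.55). Sox10, which drives myelin genes together with Myrf, ran from 5.75 through 6.39 to 6.81 CPM in CL WT and from 6.23 through 6.70 to 7.59 in PI WT. Its changes were 0.10 (SE 0.14) in WT and 0.14 (SE 0.21) in KO, with adjusted p of 0.723 and 0.731 (moderated trimmed-mean test), and the groups overlapped in both genotypes.

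Gpr17, Enpp6 and Bcas1, the genes of committed cells, all had fitted values below 0 between PI WT and CL WT, and none of them was called there. Gpr17, a receptor that marks the stage just after commitment, ran from 8.22 CPM through 9.94 to 13.0 in CL WT and from 4.73 through 8.89 to 9.50 in PI WT. PI WT replicates 3 and 6 were the low ones, the groups overlapped, and the change was -0.39 (SE 0.28, 95% interval -0.99 to 0.20, adjusted p = 0.436). Leaving out 1 library gave -0.49 to -0.16, the latter without PI WT replicate 3 or 6. In KO its recoverable values ran from 11.872 through 13.5 to 14.4 CPM in CL and from 9.45 through 9.91 to 11.866 in PI. These did not overlap, but the margin was narrow, and the lost lowest and highest values may overlap. The KO change was -0.37 (SE 0.13, 95% interval -0.66 to -0.09, unadjusted p = 0.0139, adjusted p = 0.0921), and of the 12 fits that leave out 1 library it passed the threshold in 1, without PI KO replicate 4 (adjusted p = 0.0432). Lims2 lies on the opposite strand over exons of Gpr17 and had -1.06 in WT (SE 0.31, adjusted p = 0.0487), and whether the counting used strand is not stated in the sources used here.

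Enpp6, a choline phosphodiesterase of newly formed oligodendrocytes, lies on chromosome 8 from 46986887 to 47096762 on the plus strand and was the least read of the 9. It ran from 4.67 CPM through 5.44 to 5.83 in CL WT and from 2.46 through 3.79 to 4.95 in PI WT. The low PI libraries were replicates 4 and 6, and the groups overlapped. The deposited PI value was the lower in 6 of 6 animals, with tied values taken as deposited. The change was -0.55 (SE 0.26, 95% interval -1.12 to 0.02, adjusted p = 0.225), close in size to that of Cspg4 but with a larger SE. In KO the values overlapped throughout, from 3.36 through 4.00 to 6.48 CPM in CL and from 4.27 through 4.60 to 5.09 in PI (0.10, SE 0.25, adjusted p = 0.849).

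Bcas1, a protein of early myelinating cells, lies on chromosome 2 from 170346991 to 170427845 on the minus strand. It ran from 57.7 CPM through 63.4 to 66.8 in CL WT and from 43.0 through 47.0 to 72.0 in PI WT. PI WT replicates 1 and 2 carried the high values, above all recoverable CL WT values, and the other 4 PI libraries lay below them. The change was -0.30 (SE 0.17, 95% interval -0.67 to 0.08, adjusted p = 0.333), and it was called when either of those 2 libraries was left out (-0.46, adjusted p = 0.00528 without PI WT replicate 1 and 0.00477 without PI WT replicate 2). With the 2 samples of each animal paired, the same change of -0.30 was called (adjusted p = 0.0179, paired trimmed-mean test in limma). In KO it ran from 45.6 through 52.0 to 53.8 CPM in CL and from 50.2 through 51.6 to 58.3 in PI (0.06, SE 0.09, adjusted p = 0.75).

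Tnr was by far the most read of the 9, and its change was small. It lies on chromosome 1 from 159523769 to 159931729 on the plus strand. In KO it ran from 297 CPM through 312 to 326 in CL and from 247 through 258 to 280.2 in PI. All recoverable PI KO values lay below all recoverable CL KO values. The trimmed means were 8.28 ± 0.04 log2 CPM in CL KO and 8.02 ± 0.06 in PI KO. Tnr fell by 0.26 (SE 0.07, 95% interval -0.40 to -0.12, adjusted p = 0.0277 by the moderated trimmed-mean test in limma). This call was lost without any 1 of PI KO replicates 1, 3, 5 and 6 and CL KO replicates 2, 3 and 4, at adjusted p of 0.0531 to 0.0763 and changes of -0.27 to -0.23, and with no trend in the prior variance (adjusted p = 0.105). With animals paired it was kept (adjusted p = 0.00253).

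In WT animals Tnr ran from 275.6 CPM through 294 to 326 in CL and from 259.5 through 269 to 274.8 in PI. The recoverable values again did not overlap, though by a narrow margin, and the change was -0.15 (SE 0.07, 95% interval -0.29 to 0.00, adjusted p = 0.211). The difference between the KO and WT changes was -0.11 (SE 0.10, adjusted p = 0.992), so the fall of Tnr in KO was not shown to differ from the change in WT. Because some neurons make Tnr, the neuron markers are given beside it. They summed to 7851 to 8910 CPM in PI KO and 9269 to 9746 in CL KO, and to 8139 to 9101 in PI WT and 9372 to 10027 in CL WT, without overlap in either genotype. Of the 12, 4 were lower in each genotype, among them Nefl, a neurofilament subunit (-0.31 in KO, SE 0.06, adjusted p = 0.00427, and -0.41 in WT, SE 0.07, adjusted p = 0.00291), and Syn1, a synaptic vesicle protein (-0.33 in KO, SE 0.06, and -0.23 in WT, SE 0.05). Gad2, an enzyme of GABA synthesis, was the 1 neuron marker called higher in KO (0.38, SE 0.07, adjusted p = 0.00652). The neuron list had a median log2 fold change of -0.13 in KO and -0.14 in WT, and the part of neurons in the Tnr value was not tested.

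Over both genotypes the recoverable values of PI and CL did not overlap for 3 of the 9 genes in WT (Cspg4, Olig1 and Tnr) and for 3 of 9 in KO (Pdgfra, Gpr17 and Tnr). Of all genes, 26.3% did not overlap in WT and 26.8% in KO, so these shares are close to those of all genes. Tnr was the gene that did so in both. At an unadjusted p under 0.05 stood 2 of the 9 in each genotype, beside 23.9% of all genes in WT and 24.9% in KO. The median log2 fold change of the 9 was -0.23 in WT and -0.01 in KO, with 6 of 9 and 5 of 9 values below 0. Of all 9 genes over both genotypes, 2 of 18 tests were called.

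**Figure D2:**
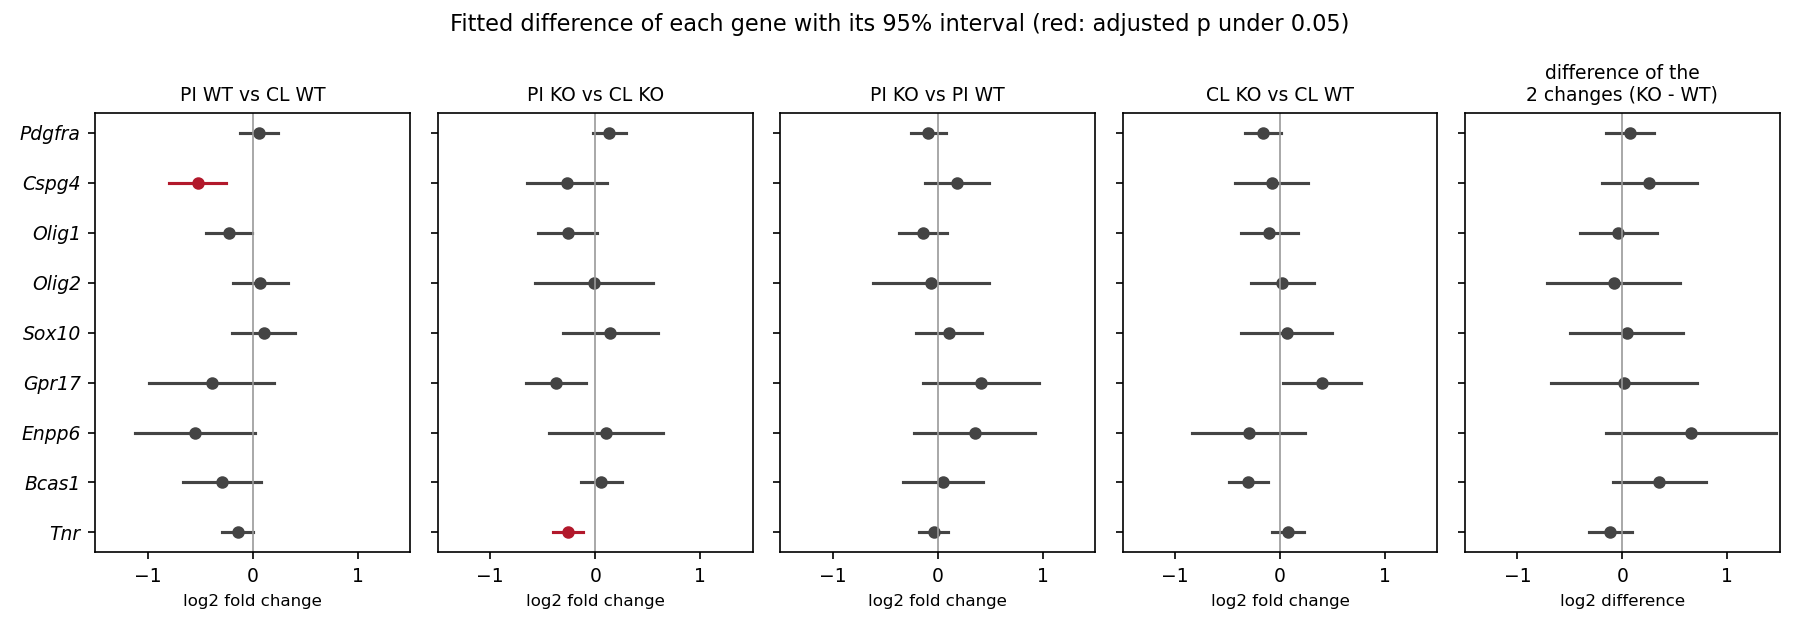
Fitted log2 difference of each of the 9 genes (point) with its 95% interval (line) in the 5 comparisons. Red marks the 2 calls at adjusted p under 0.05, Cspg4 in PI WT against CL WT (-0.53) and Tnr in PI KO against CL KO (-0.26). No gene is red in the panels of KO against WT or of the difference of the changes.

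Loss of ciRS-7 was compared within each side, which is the comparison the study names as its aim. In PI no gene of the 9 was called, none had an unadjusted p under 0.05 (5.75% of all genes did), and the recoverable values of PI KO and PI WT overlapped for all 9 (8.97% of all genes did not overlap). The value farthest from 0 was that of Gpr17, with 9.68 through 10.1 to 12.1 CPM in PI KO and 4.82 through 9.05 to 9.70 in PI WT. Its log2 fold change was 0.41 (SE 0.26, 95% interval -0.14 to 0.97, adjusted p = 0.868), with a range of 0.18 (without PI WT replicate 3 or 6) to 0.51 when 1 library was left out. The overlap was narrow, since PI WT had 4 libraries at or below the lowest recoverable PI KO value. Enpp6 had 0.35 (SE 0.27), Cspg4 0.18 (SE 0.14), Sox10 0.11 (SE 0.15), Bcas1 0.05 (SE 0.18), Tnr -0.04 (SE 0.06), Olig2 -0.06 (SE 0.25), Pdgfra -0.09 (SE 0.08) and Olig1 -0.14 (SE 0.10). The intervals are tight for Tnr (-0.17 to 0.10) and Pdgfra (-0.25 to 0.08), and wide enough for Olig2 (-0.61 to 0.49) and Enpp6 (-0.23 to 0.93) to hold changes in either direction.

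In CL, again none of the 9 was called between KO and WT, 2 had an unadjusted p under 0.05 (5.73% of all genes did), and 2 did not overlap (8.67% of all genes did not). Bcas1 had the smallest p of the 9. It ran from 44.7 CPM through 51.0 to 52.8 in CL KO and from 56.4 through 62.0 to 65.3 in CL WT, with no overlap. Its log2 fold change was -0.30 (SE 0.08, 95% interval -0.48 to -0.12, unadjusted p = 0.00356, adjusted p = 0.597 in limma). Gpr17 had the opposite sign, from 11.7 through 13.2 to 14.2 CPM in CL KO and from 8.01 through 9.72 to 12.7 in CL WT (0.40, SE 0.17, 95% interval 0.02 to 0.77, unadjusted p = 0.0384, adjusted p = 0.834). Both mark committed cells, their fitted values had opposite signs, and the Gpr17 groups overlapped.

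Pdgfra was the other gene without overlap of recoverable values in CL, by a narrow margin. It ran from 45.8 through 48.2 to 49.66 CPM in CL KO and from 49.72 through 53.0 to 58.8 in CL WT (-0.16, SE 0.08, 95% interval -0.33 to 0.01, adjusted p = 0.878). The remaining values were -0.30 for Enpp6 (SE 0.25), -0.10 for Olig1 (SE 0.12), -0.08 for Cspg4 (SE 0.16), 0.02 for Olig2 (SE 0.14), 0.06 for Sox10 (SE 0.20) and 0.08 for Tnr (SE 0.07). CL KO and CL WT also enter the comparisons of PI with CL, so these values and the changes from CL to PI share libraries. The difference of the changes was farthest from 0 for Enpp6 (0.65, SE 0.39, 95% interval -0.15 to 1.46) and Bcas1 (0.35, SE 0.21, 95% interval -0.09 to 0.80), and the smallest adjusted p among the 9 was 0.992. None of the 9 had an unadjusted p under 0.05 there, beside 4.55% of all genes.

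Genes of mature oligodendrocytes, the stage that follows the 9, are given for the same libraries. Of 17 such genes 16 were listed, and in WT 3 were called lower in PI and 1 higher, with a median log2 fold change of -0.29. The lower ones were Aspa, an enzyme that splits N-acetylaspartate (-0.65, SE 0.15, adjusted p = 0.0134), Cnp, a phosphodiesterase of myelin (-0.41, SE 0.10, adjusted p = 0.0167), and Mal, a myelin proteolipid (-0.45, SE 0.12, adjusted p = 0.0346). The 1 higher gene was Trf, the iron carrier transferrin (1.18, SE 0.24, adjusted p = 0.00743). In KO, Trf was again higher (1.41, SE 0.18, adjusted p = 0.000452), none was lower, and the median was 0.00. Between CL KO and CL WT 15 of the 16 values were negative (median -0.17) and none was called, the smallest p being that of Mobp (-0.33, SE 0.08, unadjusted p = 0.000915, adjusted p = 0.461). For the difference of the changes all 16 were positive (median 0.24) and none was called, the smallest p being that of Aspa (0.60, SE 0.28, adjusted p = 0.992).

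The summed level of the mature genes ran from 1828 to 2731 CPM in PI WT, 2475 to 2779 in CL WT, 2027 to 2316 in PI KO and 1894 to 2806 in CL KO. By the mean log2 CPM of these genes CL KO replicates 1 and 3 stood low, at 5.24 and 5.28 beside 5.62 to 5.83 in the other CL KO libraries. PI WT replicates 1 and 2 stood high, at 5.88 and 5.87 beside 5.40 to 5.57 in the other PI WT libraries. These are the same libraries in which Olig1 was low in CL KO and Bcas1 was high in PI WT, and the part of white matter content in these values was not tested.

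The 9 genes did not vary as 1 block among animals. After the group means were removed, the 36 pairs among the 9 had a Pearson's r over 24 libraries of -0.48 (Pdgfra and Olig2) to 0.78 (Olig1 and Sox10), with a median of 0.13 and 25 positive values. Enpp6 and Bcas1, both of newly formed oligodendrocytes, had 0.70, and Olig1 and Bcas1 had 0.53. Libraries share their scaling and depth across all genes, and the values are drawn in, so these are descriptions. With the mean of the mature oligodendrocyte genes, r was 0.82 for Olig1, 0.77 for Bcas1, 0.72 for Sox10, 0.60 for Enpp6 and 0.40 for Gpr17. For Tnr it was 0.12, for Pdgfra 0.11, for Cspg4 -0.00 and for Olig2 -0.06. The 4 genes with values near 0 there were thus both precursor genes, Olig2 and Tnr. Cspg4 had r of 0.24 with the mean of the pericyte genes and -0.48 with that of the fibroblast genes, and Tnr had 0.32 with that of the neuron genes.

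**Figure D3:**
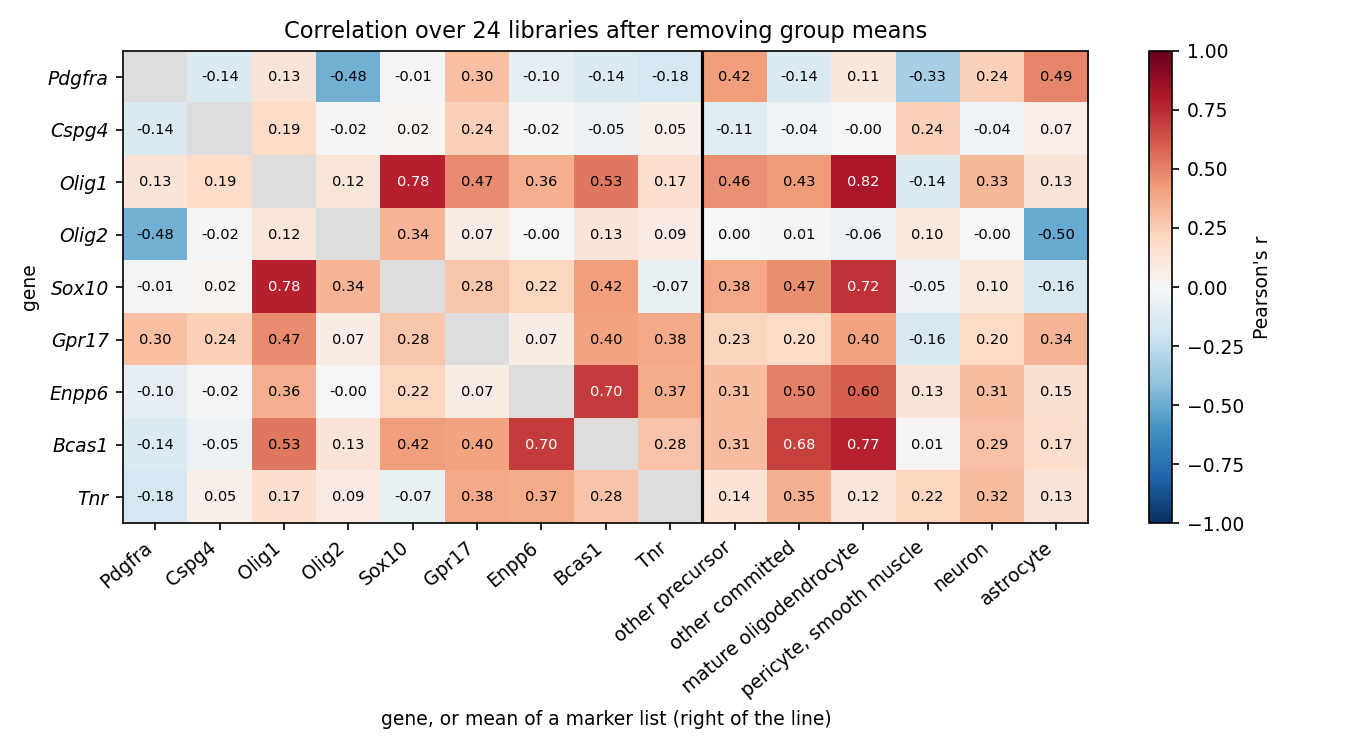
Pearson's r over 24 libraries, after the group means were removed, between each of the 9 genes (rows) and each other (left of the line) or the mean of a marker list (right of the line), with red for positive and blue for negative values. Olig1, Bcas1 and Sox10 have the highest values with the mature oligodendrocyte genes (0.82, 0.77 and 0.72), and Cspg4 and Olig2 are near 0 there (-0.00 and -0.06).

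Some libraries were low or high in many of the 9 at once. PI WT replicate 1 was among the 2 highest of its group in 7 of the 9 genes, and PI WT replicate 3 among the 2 lowest in 7. CL WT replicate 3 was among the 2 lowest in 8, and PI KO replicate 4 among the 2 highest in 7. Cspg4 in PI WT replicate 1 was among the highest of its group and still below all recoverable CL WT values.

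Per kb of exon (GENCODE M21, the union of all exons), Tnr was the most abundant of the 9 in CL WT, at 21.4 through 22.8 to 25.4 CPM per kb. Bcas1 (15.3 through 16.8 to 17.7) and Olig1 (15.3 through 16.0 to 16.5) followed and did not differ beyond their spread. Pdgfra, at 5.09 through 5.42 to 6.00, was clear of its neighbours on both sides. Olig2 (median 2.54), Sox10 (2.10) and Gpr17 (1.91) came next, and Gpr17 overlapped both of the others. Enpp6 (0.728 through 0.849 to 0.910) and Cspg4 (0.652 through 0.714 to 0.757) were the lowest, and they overlapped. In PI WT the order was the same but for Olig1 and Bcas1, which changed places at medians of 14.0 and 12.4 CPM per kb. In total RNA a length over all exons is only an approximation, since it ignores introns and the use of single transcripts. Spans of genes on the opposite strand, introns included, cover exons of Pdgfra (Gm42802 and Gm42803), Olig1 (Gm15966), Enpp6 (4930579M01Rik), Bcas1 (Bcas1os1 and Bcas1os2) and Tnr (Gm38039). Without stated use of strand, any reads of these genes within such exons cannot be told apart from those of the 9. Cspg4, Olig2 and Sox10 have no overlapping gene.

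Other genes of precursors were called in both directions. Of 20 on the list 19 were listed in the tables of PI with CL. In WT 2 were called higher and 2 lower, with a median log2 fold change of 0.04. Megf11 and Pcdh15, a receptor-like protein and a protocadherin of precursors, were higher (0.96, SE 0.13, adjusted p = 0.000480, and 0.65, SE 0.12, adjusted p = 0.00450). Dscam, an adhesion molecule that neurons also express, was lower (-0.35, SE 0.07, adjusted p = 0.00454), as was Lrrn1 (-0.37, SE 0.09, adjusted p = 0.0248). In KO Megf11 was higher (0.59, SE 0.16, adjusted p = 0.0363), and Dscam (-0.33, SE 0.08, adjusted p = 0.0259) and Cspg5, the proteoglycan neuroglycan C (-0.33, SE 0.08, adjusted p = 0.0191), were lower, with a median of -0.10. Pcdh15 had 0.16 in KO (SE 0.08, adjusted p = 0.245), and its difference of the changes was -0.48 (SE 0.16, unadjusted p = 0.00618, adjusted p = 0.992).

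Of 18 other genes of committed cells 15 were listed, and the calls were all downward. In WT 3 were lower: Prom1, the membrane protein prominin (-0.81, SE 0.10, adjusted p = 0.000265), Tmem163, a zinc transporter (-0.75, SE 0.19, adjusted p = 0.0232), and Lims2, which overlaps Gpr17 as given above. In KO Prom1 alone was lower (-1.08, SE 0.14, adjusted p = 0.000556). The list medians were -0.04 in both genotypes. Bmp4, Nkx2-2 and 9630013A20Rik were not listed in these tables.

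Regulators and signals of the lineage changed in both directions. Of 33 genes 29 were listed in WT, with 4 higher and 3 lower and a median of 0.05, and 30 in KO, with 2 higher and 3 lower and a median of -0.02. Fgf2, a growth factor that keeps precursors dividing, was higher in WT (1.16, SE 0.13, adjusted p = 0.000168) and in KO (1.14, SE 0.16, adjusted p = 0.000872). Ptn, pleiotrophin, a ligand of the receptor phosphatase Ptprz1 on precursors, was lower in WT (-0.48, SE 0.06, adjusted p = 0.000217) and in KO (-0.34, SE 0.06, adjusted p = 0.00303). Id4, an inhibitor of helix-loop-helix factors such as OLIG1 and OLIG2, was lower in both (-0.54, SE 0.10, in WT and -0.67, SE 0.11, in KO), and Id2 was higher in WT (0.33, SE 0.05, adjusted p = 0.00238). Pdgfa, the main ligand of Pdgfra, was not called (-0.10, SE 0.10, in WT and -0.29, SE 0.09, adjusted p = 0.0657, in KO). Sox8, a relative of Sox10, was lower in both genotypes (-0.53, SE 0.12, and -0.66, SE 0.13), while Sox10 itself was not called. Of 12 cell cycle genes 9 were listed, and the 2 called in each genotype were Ccnd1, cyclin D1 (0.64 in WT, SE 0.12, and 0.61 in KO, SE 0.09), and Cdkn1a, the inhibitor p21 (0.81 in WT, SE 0.12, and 1.18 in KO, SE 0.16), both higher. Top2a, Ccnb1 and Cdk1, which mark dividing cells, were not listed. Mki67, another such marker, was among the 9 listed and was not called in either genotype. The median of the 9 listed was 0.15 in WT and 0.49 in KO, with 7 values above 0 in each.

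**Figure D4:**
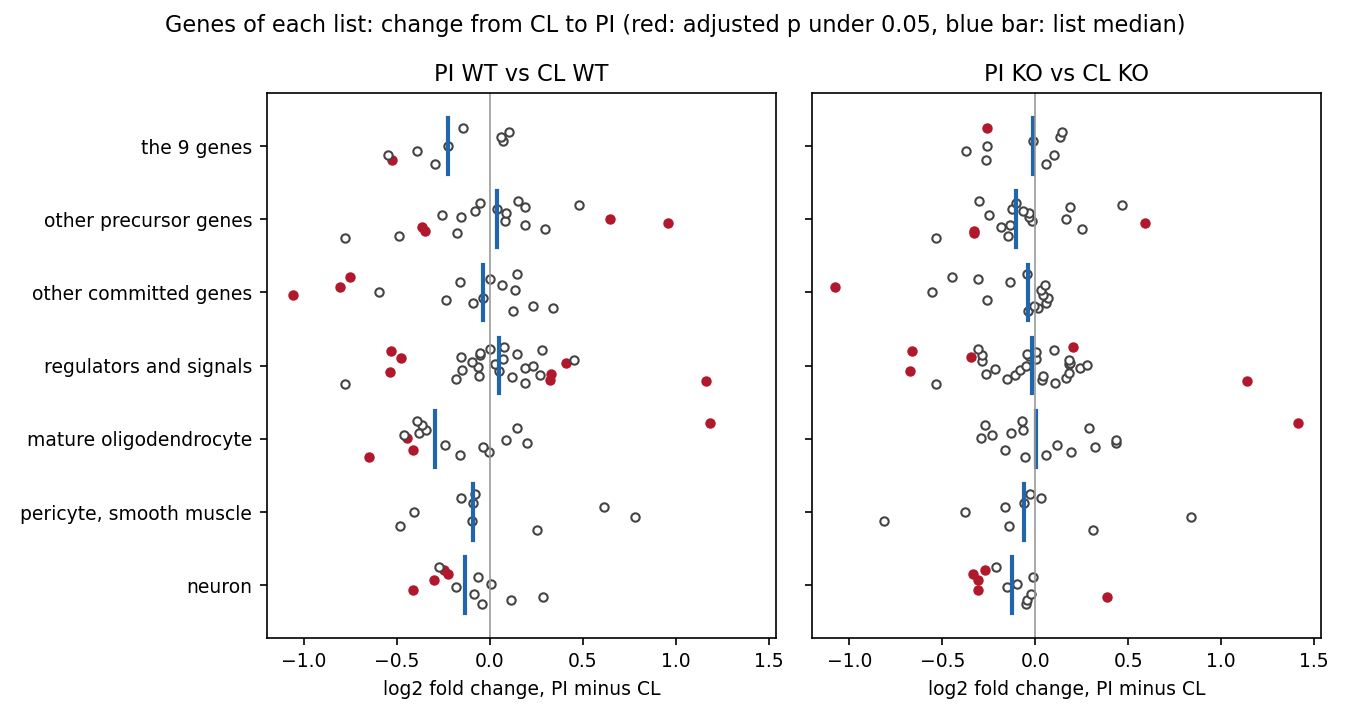
Log2 fold change from CL to PI of each gene (circle) of the 9 and of 6 lists, in WT (left) and KO (right), on a shared axis. Red circles were called at adjusted p under 0.05 and the blue bar is the median of a list: the median of the 9 is -0.23 in WT and -0.01 in KO, and that of the mature oligodendrocyte genes is -0.29 in WT and 0.00 in KO.

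Between KO and WT, and for the difference of the changes, no gene of any of these lists was called. The smallest p between PI KO and PI WT were those of Pcdh15 among precursor genes (-0.34, SE 0.12, adjusted p = 0.854), Prom1 among committed genes (-0.22, SE 0.14, adjusted p = 0.868) and Hes1, a target of Notch, among the regulators (-0.52, SE 0.13, adjusted p = 0.768). Between CL KO and CL WT they were those of Cspg5 (0.19, SE 0.07, adjusted p = 0.807), Cnksr3 (0.40, SE 0.20, adjusted p = 0.878) and Sox9 (0.34, SE 0.11, adjusted p = 0.716).

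Markers of other cells in the tissue give the setting of these changes. Gfap of astrocytes rose by 1.88 (SE 0.11, adjusted p = 1.87e-06) in WT and 2.19 (SE 0.16, adjusted p = 8.47e-06) in KO, and the 10 astrocyte markers held 2 higher and 2 lower genes in WT and 2 higher and 1 lower in KO. Of these 10, 7 had values below 0 in each genotype (list medians -0.09 in WT and -0.07 in KO). Their summed level ran from 6959 to 7468 CPM in PI WT and from 7760 to 8238 in CL WT. In KO it ran from 6739 to 7491 CPM in PI and from 7764 to 8410 in CL. Of 10 microglia markers 4 were higher and 2 lower in WT, and 4 higher and 1 lower in KO, and the smallest p in both was that of C1qb, a complement subunit (0.87, SE 0.10, and 1.01, SE 0.11). Values of the microglia list ran from -0.96 to 0.95 in WT and from -0.75 to 1.01 in KO, with 3 of 10 below 0 in each. Of 10 endothelial markers none was called in WT, where 8 had values above 0 (median 0.35). In KO Slco1a4 (-0.48, SE 0.08, adjusted p = 0.00234) and Abcb1a (-0.37, SE 0.11, adjusted p = 0.0464), both transporters, were lower. The other 8 endothelial markers had values above 0 in KO (list median 0.14), and none of them was called. Of 10 markers of infiltrating myeloid cells 8 were not listed in these tables, S100a8 and S100a9 among them, and Cd44, which other cells share, was higher (2.36, SE 0.16, in WT and 1.63, SE 0.30, in KO). Among genes of Schwann cells, Prx and Ncmap were not listed, Pmp22 was higher in both genotypes (0.48, SE 0.14, in WT and 0.55, SE 0.13, in KO) and Egr2, also an immediate early gene of neurons, lower in KO (adjusted p = 0.00504). Among genes of interneurons and their perineuronal nets, to which tenascin-R belongs, Tnc, its relative tenascin-C, was higher in both (1.71, SE 0.35, and 1.82, SE 0.34), while Vip was lower in WT (-0.47, SE 0.14, adjusted p = 0.0475) and Bcan, brevican, lower in KO (-0.41, SE 0.12, adjusted p = 0.0474).

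For 3 of the 9, the genes closest in pattern over the libraries were found among 9790 genes, by the lower of the Pearson's r over the 12 libraries of the WT table and the 12 of the KO table. For Pdgfra these were Gm10177 (0.76 in WT, 0.83 in KO), Tsc22d4 (0.76 and 0.78) and Rraga (0.71 and 0.78). For Olig2 they were Polr2m (0.83 and 0.74), Cables2 (0.73 and 0.88) and Rps2-ps10 (0.72 and 0.74). For Gpr17 they were Tspyl4 (0.87 and 0.87), Nfib (0.85 and 0.86) and Tex2 (0.84 and 0.86). None of these is another of the 9, and the highest of so many values are high in part because they were picked. The r here are of the deposited values, ties included, with group means kept. They thus also hold the difference between PI and CL, unlike the r over 24 libraries given above. Tsc22d4 was called higher in PI KO than in CL KO (0.35, adjusted p = 0.0121) and Rps2-ps10 higher in PI WT than in CL WT (0.60, adjusted p = 0.0130, both limma), and the other 7 were called in neither.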

How the data were processed

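RNA from mouse cortex (24 libraries in 4 groups of 6) was extracted with TRIzol, treated with DNase, depleted of ribosomal RNA and made into CORALL libraries, per the labels' protocols. The deposited values are log2 CPM in 4 tables of 2 groups each, per the file headers and values. The build was mm10, per the submitters' processing notes, and the aligner, counter, use of strand, gene filter and scaling are not given in the sources used here. All columns of values were mapped (0 unused).

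In the log2 values the ends of each gene and group had been replaced by its quartiles, 0.75 times the second lowest plus 0.25 times the next, a step no label records. After recovery 85.7% to 88.7% of low tied values were whole reads (within 0.03 read), and 11.4% to 14.7% as deposited. Differences were tested on the mean of the 4 inner values with the Winsorized sum of squares (6 degrees of freedom, 12 for 4 groups), moderated with a trend in limma 3.58.1 (R 4.3.3), two-sided, with Benjamini-Hochberg adjustment over all genes of a table. On simulated data for PI WT against CL WT (14489 genes, 10 runs) the test called 0 genes when none differed. It found 57.8%, 85.4% and 97.9% of genes changed by 0.5, 1 and 2. The simulated spread was set from the Winsorized sums of squares of these data and may be below the true spread. The shares found, also those of the paired test below, may thus be too high. With none changed, limma on drawn-in values called 1036. The simulated samples of an animal were made to correlate by 0.25, above the correlations in these data. Such correlation lowers the false calls of a test without pairing, so the 0 calls need not hold at lower correlations. No count test was run, as the lowest and highest values are lost.

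CL and PI libraries of 1 animal are paired by the labels. The deviations of the same animal correlated by -0.01 to 0.19 in WT (mean 0.09) and -0.05 to 0.10 in KO (mean 0.04). For different animals the means were -0.02 and -0.01. In WT 4 of 6 PI libraries correlated best with their own number, and in KO 2 of 6. On the simulated data the paired test called 0.2 genes per run with none changed. It found 55.7%, 85.5% and 98.6% of genes changed by 0.5, 1 and 2. The fit without the pairing is the main one, and paired calls of the 9 are given beside it. The 9 genes, the gene lists and the tests were chosen with earlier results of these data known, so no list's direction is independent support. All 9 genes were named, and the 3 closest in pattern to Pdgfra, Olig2 and Gpr17. For each list the rule was to name the called genes with the 3 smallest p in each comparison of PI with CL. With none called, it was the smallest p and the largest change, and in the other comparisons the smallest p. The rule was not followed in full. The neuron, astrocyte and microglia lists hold called genes within it that are not named. Most lists lack some smallest p of the other comparisons. Further genes were named, after their values were seen, to complete small counts or for a role beside the 9. Depth intervals and limits cover counting error only. Promoters are from RefSeq on GRCm38.p6 and positions from GENCODE M21. The alternatives were limma on the deposited values, no trend, median centring, a pseudocount of 0.5 CPM, a minimum mean of 1 CPM, the paired fit and leaving out each library.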

Additional observations from a re-analysis of the deposited data

How the results depend on the processing

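The deposited values bound what these tests can show, because the lowest and the highest library of every gene and group are lost. Depth is also low, so that counting alone gives the PI WT libraries of Cspg4 an SD of 0.23. Their Winsorized SD was 0.08, a measure that runs below an ordinary SD. Under limma with trend on the deposited values, a test whose error is too small for such data, the number of the 9 genes called was 5 in PI WT against CL WT (Cspg4, Olig1, Enpp6, Bcas1 and Tnr), 5 in PI KO against CL KO (Pdgfra, Cspg4, Olig1, Gpr17 and Tnr), 0 in PI KO against PI WT, 3 in CL KO against CL WT (Pdgfra, Gpr17 and Bcas1) and 2 for the difference of the changes (Enpp6 and Bcas1). Over all genes it called 6459, 6666, 2388, 2311 and 1940, beside 1537, 1440, 3, 4 and 0 in the main test. With no trend the call of Tnr in KO was lost (0 of the 9), and 1015, 739, 2, 4 and 0 genes were called in all. Median centring, the pseudocount and the minimum mean changed no call of the 9. With the replicate block, 2 of the 9 were called in WT (Cspg4 and Bcas1) and 1 in KO (Tnr), over 2275 and 2154 genes, and the pairing changed no other call of the 9. KO and WT animals share only their numbers. Same-numbered libraries correlated by -0.13 to 0.13 in PI and -0.20 to 0.13 in CL (best with their own number in 1 and 2 of 6), and the replicate block called 6 and 85 genes there, none of them among the 9, and 1 for the difference of the changes.

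Leaving out 1 library gave 1 to 2 calls among the 9 in WT, 0 to 2 in KO and 0 to 0 in the other 3 comparisons. Signs of uncalled values turned in some of these fits. In KO the ranges were -0.13 to 0.20 for Olig2, -0.014 to 0.24 for Sox10 and -0.019 to 0.30 for Enpp6. Between PI KO and PI WT they were -0.18 to 0.15 for Olig2 and -0.030 to 0.22 for Bcas1, and between CL KO and CL WT -0.15 to 0.026 for Cspg4, -0.038 to 0.074 for Olig2 and -0.028 to 0.22 for Sox10. For the difference of the changes they were -0.13 to 0.042 for Olig1, -0.20 to 0.13 for Olig2, -0.12 to 0.13 for Sox10 and -0.22 to 0.12 for Gpr17. Cspg4 in WT stayed between -0.57 and -0.49 and was called in 12 of 12 fits (adjusted p of 0.0197 to 0.0472), and Tnr in KO stayed between -0.29 and -0.23 and was called in 5 of 12.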
